A study of Chlamydomonas reinhardtii with 27 samples.

Results

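The 197 genes described here were lower in salt-treated cells of Chlamydomonas reinhardtii than in control cells at every time point sampled. They were chosen by a score computed for 10652 genes, out of 19267 identifiers in the tables. The genes scored had a CHLREDRAFT_ identifier and at least 1350 counts summed over 27 libraries. Other kinds of identifier were not scored. Expression was measured as FPKM, the fragments of a gene divided by its length and by the scaled size of the library, and a gene's level in a condition was log2(mean FPKM of 3 replicates + 1). The score was the level in the control minus the highest level among the 8 salt time points, so that a score of 1 means that even the highest salt time point lay about 2-fold below control on this scale. The 200 highest scores were taken, and 3 of them were left out because their identifiers were on a list of 6 to be excluded. The values that chose the genes are therefore the control and salt levels themselves. The differences from control, and their calls in a test, are given as a description, and no support is drawn from them.

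The strain was the wild-type GY-D55, grown in BG-11 with alternating light and darkness to the mid-logarithmic phase. Salt-treated cells were collected on the first day (2, 4, 8, and 12 h) and on the following days (24, 48, 72, and 96 h) once concentrated NaCl medium had brought the culture to 200 mM, and control cells were cultured without NaCl. Each of the 9 conditions had 3 replicates, and whether these came from separate cultures is not given in the sources used here, so that p-values measure the spread between these samples, which may be technical. There was 1 control group, whose sampling time is not given, and the salt cultures also received added medium, so that salt, culture age, time of day, and dilution cannot be told apart in any difference from control. In bulk RNA, fewer cells expressing a gene and less RNA per cell cannot be told apart.

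C. reinhardtii is a unicellular green alga with a chloroplast and a pair of cilia. High NaCl exposes such cells to osmotic and ionic stress, and the alga is known to slow its growth, to lower photosynthesis, to resorb its cilia, to form clumps called palmelloids, and to make glycerol as an osmolyte. Neither the tables nor the paper nor the reference gives a name or product for any of the 197 genes, so they are described by identifier and, where matched, by RefSeq locus tag of the assembly Chlamydomonas_reinhardtii_v5.5.

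The libraries held 15286332 to 24783139 counts, with a median of 18749997. Replicate 1 at 2 h and replicate 1 at 72 h stood apart from the other libraries, with 37.6% and 41.1% of their counts in their 50 most abundant genes. The other libraries had 20.4% to 31.2%. The 197 genes took 0.346% and 0.396% of the counts of these 2 libraries, the lowest shares of all. The part of these libraries in the values at 2 and 72 h was not tested, and values without them are given for some of the results only.

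The 197 genes were spread over a wide range of control expression. Their mean control FPKM ran from 5.17 to 6790.9 with a median of 58.1, against a median of 12.4 over all 10652 genes scored. Of the 197 genes, 16 had a control mean of at least 1000 FPKM and 2 had one below 10. The highest salt mean was 0.101 to 27.7% of the control mean, with a median of 19.2%. The lowest salt mean was 0 to 15.7% of it, with a median of 4.68%. The control mean exceeded the highest salt mean by at least 4-fold in 172 genes, by at least 10-fold in 32, and by at least 100-fold in 6. The score ran from 1.82 to 8.30 with a median of 2.24, against a median of -0.56 over all genes scored, of which 3044 (28.6%) were above 0.

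**Figure D1:**
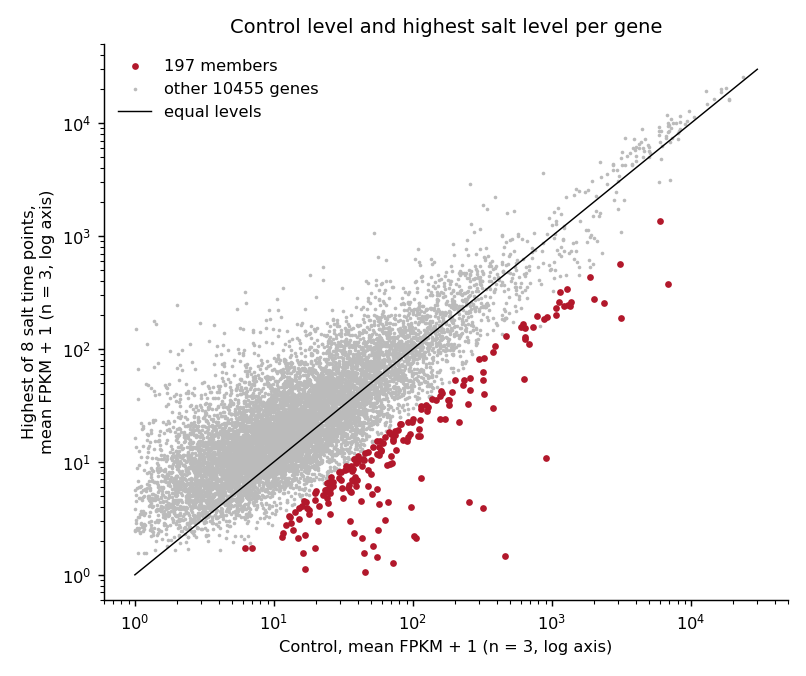
Mean FPKM + 1 at the highest of the 8 salt time points (vertical, log axis) against mean FPKM + 1 in the control (horizontal, log axis), for the 197 genes (red) and the other genes scored (grey). The red points form a band below the line of equal levels, since the score chose them, and a few lie far beneath that band, the farthest being CHLREDRAFT_192728 at 0.101% of its control level.

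As a share of all counts, the 197 genes fell to under 1 percent of each salt library. They held 5.54 ± 0.48% of counts in the control (SD, n = 3), 0.517 ± 0.148% (2 h), 0.516 ± 0.042% (4 h), 0.497 ± 0.014% (8 h), 0.711 ± 0.032% (12 h), 0.795 ± 0.021% (24 h), 0.535 ± 0.028% (48 h), 0.568 ± 0.150% (72 h), and 0.859 ± 0.055% (96 h). The 24 salt libraries ranged from 0.346% to 0.922%, and the 3 control libraries from 5.16% to 6.08%. This share was carried by few genes, since the top gene held 10.4% of the group's control counts, the top 10 held 44.9%, and the top 20 held 62.3%.

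The median gene of the group stood at 8.84% of its control level at 2 h, 10.2% (4 h), 10.1% (8 h), 12.2% (12 h), 14.0% (24 h), 9.92% (48 h), 9.37% (72 h), and 9.95% (96 h). Over all genes scored, the median stood between 94.9% and 100.2% of control at these times. Without replicate 1 of 2 h and replicate 1 of 72 h, the group median was 10.2% at 2 h and 10.1% at 72 h. These medians are over genes at each time and do not give the course of a single gene.

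In edgeR's quasi-likelihood test, a gene was called where its adjusted p (Benjamini-Hochberg, 16443 genes) was below 0.05. All 197 genes passed the filter on low counts, and all 197 were called lower than control at each time point. This follows from how they were chosen. The share of all genes called lower was 30.8% (2 h), 28.6% (4 h), 28.3% (8 h), 24.5% (12 h), 24.0% (24 h), 24.3% (48 h), 26.6% (72 h), and 26.0% (96 h), and 10.4% of genes were called lower at all 8. In all 197 genes the lowest of the 3 control libraries lay above the highest of the 24 salt libraries, which held for 15.2% of the genes scored.

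The choice was repeated on the means of 2 replicate numbers, and the score of the 200 genes so chosen was read in the replicate number left out. In replicate 1 of every condition, 199 of 200 genes had a score above 0 with a median of 2.20, where 26.3% of all genes scored were above 0. In replicate 2, all 200 were above 0 with a median of 2.15, against 27.6% of all genes. In replicate 3, all 200 were above 0 with a median of 2.08, against 27.8%. The count minimum was summed over all 27 libraries, so the replicate left out had no part in the ranking but did have one in which genes were ranked. All libraries came from the same experiment and share its control group. The choices without replicate 1, 2, and 3 held 175, 182, and 178 of the 197 genes. In each of the 197 every control library lay above every salt library, so their score above 0 in any replicate was fixed in advance. These values are a description, and no support is drawn from them.

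At the limit of the score, neighbouring genes were alike. CHLREDRAFT_194715, CHLREDRAFT_165065, and CHLREDRAFT_169525 were the last 3 inside, with scores of 1.84, 1.84, and 1.82. Just outside were CHLREDRAFT_206039, CHLREDRAFT_142824, and CHLREDRAFT_186590, each with a score of 1.82. The group is therefore the end of a continuous range and has no gap at its border.

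The 12 genes with the highest scores had 0.101 to 3.12% of their control level at their highest salt time point. CHLREDRAFT_192728 (CHLRE_05g240300v5) had the highest score, 8.30. Its FPKM was 0 to 0.657 over the 24 salt libraries with a median of 0.122, against 471, 433, and 479 in the control libraries. In raw counts it had 84 over all 24 salt libraries together, against 20436 over the 3 control libraries, and 9 salt libraries had none. At 48 h none of the 3 libraries held a count, which puts the control at least 2266-fold higher than a floor of 3 counts per library.

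CHLREDRAFT_193343 (CHLRE_11g467594v5) was the most abundant of these 12 in the control. It had 1.66 to 13.1 FPKM under salt with a median of 4.94, against 875, 838, and 1001 FPKM in the control. CHLREDRAFT_185219 (CHLRE_11g467599v5) had 0.188 to 3.50 FPKM under salt with a median of 1.56, against 268, 300, and 385 FPKM in the control. CHLREDRAFT_193344 (CHLRE_11g467593v5) had 1.09 to 4.96 FPKM under salt with a median of 1.95, against 232, 236, and 287 FPKM in the control. These 3 genes had counts in every salt library, so that their low level was measured above 0 throughout.

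CHLREDRAFT_173507 (CHLRE_09g388352v5) had 0 to 0.809 FPKM under salt, against 73.2, 65.7, and 73.6 FPKM in the control. CHLREDRAFT_150144 (CHLRE_08g362600v5) had 0 to 0.185 FPKM under salt, against 48.8, 39.9, and 43.3 FPKM in the control, and 14 of its 24 salt libraries held no count. CHLREDRAFT_187017 (CHLRE_06g273100v5) had 0 to 2.19 FPKM under salt, against 86.3, 105, and 123 FPKM in the control. CHLREDRAFT_187017 had 0, 0.0679, and 0.393 FPKM at 96 h, against 0.613, 1.41, and 0.305 FPKM at 24 h (log2 fold change -2.38 ± 0.82 SE, edgeR with Benjamini-Hochberg adjusted p = 0.0365). These values rest on 0, 1, and 5 counts at 96 h, against 7, 16, and 3 counts at 24 h.

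Of the remaining 5, CHLREDRAFT_183696 (CHLRE_01g045200v5) had 0 to 2.36 FPKM under salt, against 108, 65.6, and 127 FPKM in the control. CHLREDRAFT_144677 (CHLRE_12g512300v5) had 0 to 0.561 FPKM under salt, against 39.2, 40.0, and 82.8 FPKM in the control. CHLREDRAFT_151050 (CHLRE_09g401960v5) had 0 to 1.26 FPKM under salt, against 50.8, 54.2, and 46.7 FPKM in the control. Their ranges were far apart, with no salt library near a control library. CHLREDRAFT_193339 (CHLRE_11g467601v5) had 0 to 1.39 FPKM under salt, against 44.8, 35.9, and 50.1 FPKM in the control. CHLREDRAFT_180430, which had no match in the reference, had 0.115 to 3.52 FPKM under salt, against 113, 93.7, and 79.0 FPKM in the control.

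Complete loss of counts was rare in the group as a whole. A salt library without counts was found in 39 of the 197 genes, and in 18 when replicate 1 of 2 h and replicate 1 of 72 h were left out. An average below 10 counts per salt library was found in 9 genes. In 3 genes all libraries of a time point were at 0. Besides CHLREDRAFT_192728, these were CHLREDRAFT_172572 (CHLRE_13g591550v5), where the control was at least 213.8-fold above the floor of 3 counts per library at 24 h and at least 202.9-fold at 72 h, and CHLREDRAFT_188399, where it was at least 125.5-fold above it at 12 h.

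The 12 genes with the highest control level kept a measurable level under salt and changed within the time course. Their salt counts allow the time points to be compared with each other, which the score did not use beyond the highest of them. Among these 12, CHLREDRAFT_185533, CHLREDRAFT_184071, and CHLREDRAFT_195162 dipped at 8 h, were higher at 24 h, dipped again at 48 h, and were higher at 96 h.

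CHLREDRAFT_185533 (CHLRE_01g066917v5) had the highest control level of the group, with 7230.3, 5666.8, and 7475.7 FPKM. Under salt it averaged 375 ± 320 FPKM at 2 h, 59.6 ± 12.6 FPKM at 4 h, 10.3 ± 0.961 FPKM at 8 h, 35.2 ± 6.89 FPKM at 12 h, 121 ± 30.0 FPKM at 24 h, 32.2 ± 2.97 FPKM at 48 h, 138 ± 27.2 FPKM at 72 h, and 342 ± 6.53 FPKM at 96 h (SD, n = 3). The wide spread at 2 h came from replicate 1, with 745 FPKM against 190 in each of the other 2. It fell by 5.17 on the log2 scale at 8 h relative to 2 h (SE 0.38, edgeR with Benjamini-Hochberg adjusted p = 2.48e-11), and by 4.28 without replicate 1 of 2 h. It was then 3.61 ± 0.35 higher at 24 h than at 8 h (log2 ± SE, adjusted p = 4.88e-09) and 1.47 ± 0.32 higher at 96 h than at 24 h (adjusted p = 0.00128).

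CHLREDRAFT_184071 (CHLRE_12g548950v5) had a like course. Its control libraries held 2836, 2597, and 3991.8 FPKM, and its salt means were 178 ± 65.7 FPKM at 2 h, 89.7 ± 22.2 FPKM at 4 h, 17.7 ± 1.71 FPKM at 8 h, 25.4 ± 5.73 FPKM at 12 h, 107 ± 20.7 FPKM at 24 h, 18.7 ± 1.58 FPKM at 48 h, 69.8 ± 20.2 FPKM at 72 h, and 188 ± 9.65 FPKM at 96 h (SD, n = 3). The log2 fold change was -3.33 ± 0.26 at 8 h against 2 h, 2.66 ± 0.25 at 24 h against 8 h, and 0.78 ± 0.23 at 96 h against 24 h (SE, adjusted p = 6.39e-11, 2.42e-09, and 0.0168). CHLREDRAFT_195162 (CHLRE_04g232104v5) had control values of 2503.7, 1964.9, and 2598.1 FPKM, with log2 fold changes of -3.27 ± 0.28, 2.97 ± 0.27, and 0.72 ± 0.25 in the same 3 comparisons (SE, adjusted p = 3.45e-10, 1.7e-09, and 0.0427). In all 3 genes replicate 1 at 2 h was the highest salt library of that time point.

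In a further 6 of these 12 genes the level stayed low for the first 8 h and was higher from 12 h on. CHLREDRAFT_184471 (CHLRE_06g283050v5) had 2589.9, 1638.8, and 1749 FPKM in the control libraries, and averaged 15.2 ± 5.37 FPKM at 2 h, 9.91 ± 3.38 FPKM at 4 h, 7.67 ± 0.889 FPKM at 8 h, 95.1 ± 12.3 FPKM at 12 h, 203 ± 49.7 FPKM at 24 h, 81.7 ± 7.07 FPKM at 48 h, 201 ± 16.3 FPKM at 72 h, and 275 ± 38.2 FPKM at 96 h (SD, n = 3). It was 4.78 ± 0.27 higher at 24 h than at 8 h on the log2 scale (SE, edgeR with Benjamini-Hochberg adjusted p = 7.85e-14). At its highest salt time point it still had 13.8% of its control level.

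The other 5 of these, CHLREDRAFT_186531, CHLREDRAFT_182959, CHLREDRAFT_76146, CHLREDRAFT_182015, and CHLREDRAFT_192478, were also called higher at 24 h than at 8 h, with log2 fold changes of 4.01 ± 0.18, 2.91 ± 0.23, 2.63 ± 0.19, 2.50 ± 0.22, and 2.35 ± 0.17 (SE, adjusted p = 8.53e-16, 9.65e-11, 1.12e-11, 7.01e-10, and 1.24e-11). In each of the 6 the mean at 48 h was below the means at 24 h and 72 h. None of the 6 was called different between 96 h and 24 h, with log2 fold changes between -0.19 and 0.41.

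The last 3 of the 12 followed other courses. CHLREDRAFT_196277 (CHLRE_09g402219v5) had 6229.4, 5682, and 5940.8 FPKM in the control, and averaged 192 ± 36.3 FPKM at 2 h, 608 ± 98.5 FPKM at 4 h, 234 ± 17.0 FPKM at 8 h, 1333 ± 104 FPKM at 12 h, 1369.5 ± 238 FPKM at 24 h, 471 ± 28.5 FPKM at 48 h, 225 ± 73.9 FPKM at 72 h, and 146 ± 14.9 FPKM at 96 h (SD, n = 3). It had the highest salt level of the whole group, and it fell by 3.26 on the log2 scale at 96 h relative to 24 h (SE 0.19, adjusted p = 1.72e-12). CHLREDRAFT_150956 (CHLRE_05g237450v5) fell by 2.00 at 8 h relative to 2 h (SE 0.26, adjusted p = 4.21e-07). CHLREDRAFT_154991 (CHLRE_17g734757v5) went the other way at 8 h, 0.90 ± 0.31 above 2 h (log2 ± SE, adjusted p = 0.021), with 63.4 FPKM in replicate 1 of 2 h against 253 and 212 in the other 2.

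**Figure D2:**
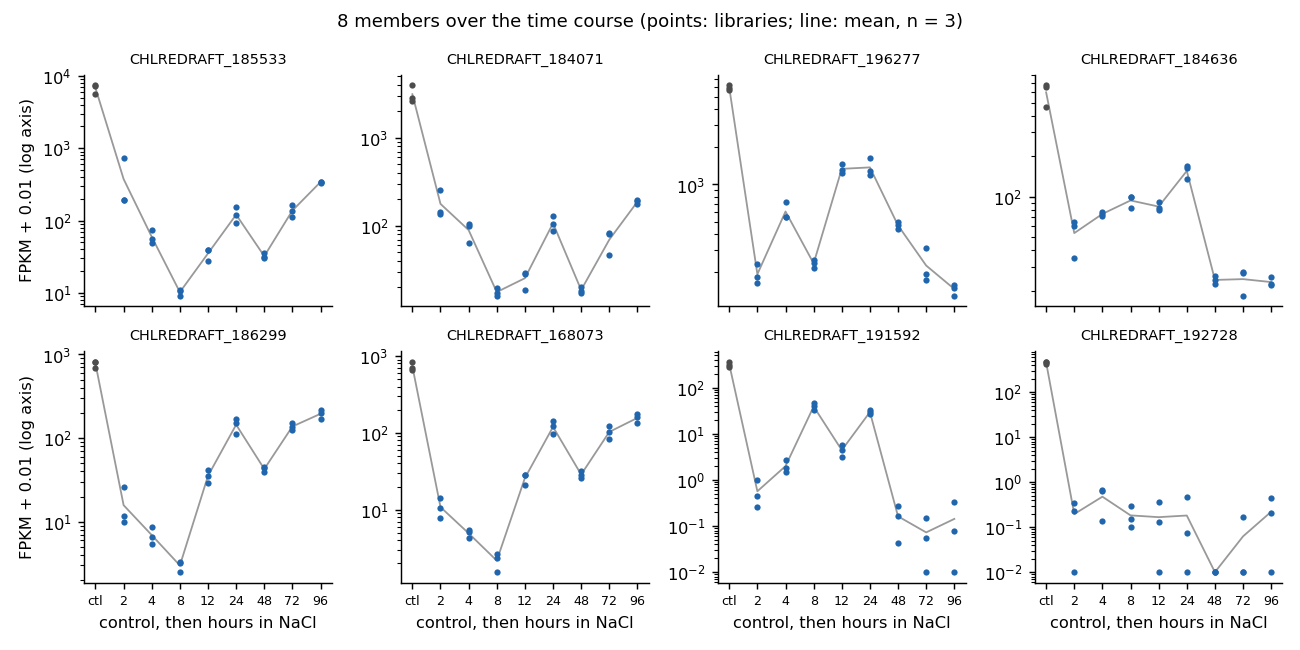
FPKM + 0.01 (vertical, log axis) of 8 of the genes in the control and at each salt time point, with a point per library and a line through the means of 3 replicates. CHLREDRAFT_185533 and CHLREDRAFT_184071 reach their lowest values at 8 h. Among the salt time points, CHLREDRAFT_196277 and CHLREDRAFT_184636 are highest at 24 h, and CHLREDRAFT_191592 has maxima at 8 h and 24 h. CHLREDRAFT_192728 stays below 1 FPKM in every salt library.

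To describe how the group as a whole differed between salt time points, these were compared with each other. Hours in salt and culture age cannot be told apart in these comparisons. Nor can time of day at 8 h against 2 h and at 24 h against 8 h. These comparisons are not free of the choice, since the highest salt level entered the score, but they share no library with the control. Shares of all genes tested are over 16443 genes, which include genes that were not among the 10652 scored. Shares over the scored genes alone are not given here. Differences between the group and all genes tested, in these comparisons and their patterns, cannot be told apart from the choice, including its count minimum. The comparisons of 8 h with 2 h and of 24 h with 8 h share the 8 h libraries, and those of 24 h with 8 h and of 96 h with 24 h share the 24 h libraries.

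At 8 h relative to 2 h the group was divided much as all genes were. Of the 197 genes, 45 (22.8%) were called higher and 38 (19.3%) lower, where 22.3% and 22.7% of all genes tested were called, and the median log2 fold change was -0.01 against 0.03 for all genes. The largest rises among the genes called were in CHLREDRAFT_191592, CHLREDRAFT_179244, and CHLREDRAFT_165065. CHLREDRAFT_191592 (CHLRE_16g679750v5) had 39.0, 45.5, and 32.3 FPKM at 8 h, against 0.253, 0.982, and 0.437 FPKM at 2 h (log2 fold change 5.96 ± 0.38 SE, edgeR with Benjamini-Hochberg adjusted p = 2.64e-12). The 2 times did not overlap, and the change was 6.76 without replicate 2 of 2 h. CHLREDRAFT_179244 (CHLRE_08g371500v5) had 16.1, 11.5, and 13.6 FPKM at 8 h, against 1.96, 2.01, and 1.32 FPKM at 2 h (2.94 ± 0.36, adjusted p = 1.72e-07).

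CHLREDRAFT_165065 (CHLRE_14g630000v5) had 3.31, 2.65, and 3.17 FPKM at 8 h, against 0, 0.759, and 0.407 FPKM at 2 h (log2 fold change 2.74 ± 0.49 SE, edgeR adjusted p = 5.38e-05), and the change was 3.69 without replicate 2 of 2 h. The lowest fold changes were those of CHLREDRAFT_185533 and CHLREDRAFT_184071, given above, and of CHLREDRAFT_143990 (CHLRE_03g168950v5). The last had 1 count in the 3 libraries of 8 h together, against 48 in those of 2 h, a ratio of 0.0199 with an exact 95% counting interval of 0.000495 to 0.117. Its fitted log2 fold change of -5.11 ± 1.05 (SE, adjusted p = 0.00025) was -6.86 without replicate 3 of 8 h, the library that held the count.

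At 24 h relative to 8 h more of the group was called higher than of all genes. Of the 197 genes, 65 (33.0%) were called higher and 21 (10.7%) lower, where 21.2% and 19.9% of all genes tested were called. The median log2 fold change was 0.29 in the group and -0.04 over all genes. CHLREDRAFT_168073 (CHLRE_10g452050v5) had 96.0, 121, and 142 FPKM at 24 h, against 2.32, 1.53, and 2.66 FPKM at 8 h (5.85 ± 0.25 SE, edgeR with Benjamini-Hochberg adjusted p = 3.61e-16). CHLREDRAFT_186299 (CHLRE_10g425900v5) had 112, 150, and 171 FPKM at 24 h, against 3.28, 3.20, and 2.48 FPKM at 8 h (5.65 ± 0.28, adjusted p = 9.52e-15). Both genes had control levels above 600 FPKM in every library, and both stayed below 30 FPKM from 2 h to 8 h.

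CHLREDRAFT_143990 had the highest fitted change in this comparison, 7.22 ± 0.94 (log2 ± SE, adjusted p = 6.29e-07), which again rests on the 1 count at 8 h. It had 154 counts at 24 h, of which 114 were in replicate 2, a ratio of 218.1 with a counting interval of 38.6 to 8670. The change was 5.94 without replicate 2 of 24 h and 8.98 without replicate 3 of 8 h. Among the genes called lower, CHLREDRAFT_95038 had 0, 0, and 0.524 FPKM at 24 h, against 4.80, 3.38, and 5.92 FPKM at 8 h (-4.73 ± 1.08, adjusted p = 0.000868). Its change was -8.89 without replicate 3 of 24 h, -4.13 without replicate 1, and -4.14 without replicate 2.

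CHLREDRAFT_190800 (CHLRE_12g544450v5) had 0, 0.0833, and 0.0964 FPKM at 24 h, against 0.367, 0.638, and 0.774 FPKM at 8 h (log2 fold change -3.22 ± 0.78 SE, edgeR adjusted p = 0.00158), and -2.62 without replicate 1 of 24 h. CHLREDRAFT_188399 had 0, 0.255, and 0.492 FPKM at 24 h, against 2.12, 2.01, and 1.78 FPKM at 8 h (-2.94 ± 1.08, adjusted p = 0.0319). The call of CHLREDRAFT_188399 was lost in DESeq2 (adjusted p = 0.199) and on leaving out replicate 1 or 2 of 8 h (0.0606 and 0.0589) or replicate 1 or 2 of 24 h (0.105 and 0.0774), and its change was -3.80 without replicate 3 of 24 h and -2.33 without replicate 1.

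At 96 h relative to 24 h, time points a whole number of days apart, the direction was the opposite. Of the 197 genes, 12 (6.09%) were called higher and 46 (23.4%) lower, where 10.9% and 10.7% of all genes tested were called. The median log2 fold change was -0.27 in the group and 0.02 over all genes. The count of 12 was 6 without replicate 3 of 96 h, and 22 without the 2 libraries that stood apart, neither of which is a library of 24 h or 96 h. The share of all genes called under these alternatives is not given here, so 10.9% cannot be set beside these counts. The lowest change was in CHLREDRAFT_191592, with 0.330, 0.0681, and 0 FPKM at 96 h, against 26.3, 32.6, and 29.6 FPKM at 24 h (-7.76 ± 0.47 SE, edgeR with Benjamini-Hochberg adjusted p = 3.17e-12), and -9.52 without replicate 1 of 96 h. It rested on 11 counts at 96 h. Over the whole course this gene had 365, 283, and 315 FPKM in the control, its salt maxima at 8 h and 24 h, and at most 0.330 FPKM in any library from 48 h on.

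Next in size were CHLREDRAFT_196277, given above, and CHLREDRAFT_184636 (CHLRE_03g143967v5). CHLREDRAFT_184636 had 22.3, 21.8, and 25.2 FPKM at 96 h, against 135, 163, and 168 FPKM at 24 h (log2 fold change -2.78 ± 0.20 SE, edgeR adjusted p = 1.15e-10). Of the genes called higher, CHLREDRAFT_181378 (CHLRE_17g714200v5) had 30.1, 27.01, and 29.6 FPKM at 96 h, against 6.48, 7.54, and 9.83 FPKM at 24 h (1.84 ± 0.21, adjusted p = 2.13e-07). CHLREDRAFT_113676 (CHLRE_13g568950v5) had 5.92, 5.59, and 5.22 FPKM at 96 h, against 0.465, 1.28, and 0.675 FPKM at 24 h (2.73 ± 0.47, adjusted p = 0.000108).

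CHLREDRAFT_193339, one of the 12 highest scores, had 22 counts at 96 h against 2 at 24 h, a ratio of 8.54 with a counting interval of 2.10 to 74.9. Its fitted log2 fold change of 2.93 ± 1.05 (SE, edgeR adjusted p = 0.0461) lay close to the threshold. It missed the threshold without replicate 2 or 3 of 24 h (adjusted p = 0.156 and 0.134) and without replicate 2 or 3 of 96 h (0.0851 and 0.138), and was 5.90 without replicate 1 of 24 h.

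**Figure D3:**
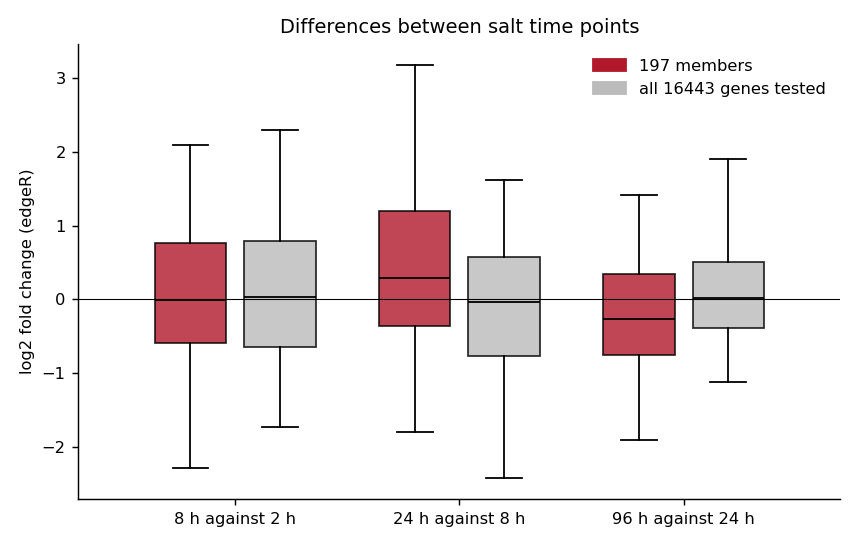
Log2 fold changes from edgeR for 3 comparisons of salt time points, for the 197 genes (red, left of each pair) and all genes tested (grey, right), with boxes from the 25th to the 75th percentile, a line at the median, and whiskers at the 5th and 95th percentiles. The red median is -0.01 at 8 h against 2 h, 0.29 at 24 h against 8 h, and -0.27 at 96 h against 24 h, while the grey medians stay between -0.04 and 0.03.

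Across the 3 comparisons, 61 genes of the group (31.0%) were called in none, against 33.5% of all genes tested. Lower at 8 h than at 2 h and then higher at 24 h than at 8 h were 27 genes (13.7%, against 9.48% of all genes). The opposite pattern, higher and then lower, held for 8 genes (4.06%, against 7.41%). Higher at 24 h than at 8 h and then lower at 96 h than at 24 h were 29 genes (14.7%, against 6.95%).

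The time of the highest and lowest salt mean varied within the group. The highest salt mean entered the score, so these times are not free of the choice. Every gene of the group had a score above 0, as did 28.6% of all genes scored. Differences between the shares of the group and of all genes scored cannot be told apart from the choice. The highest was at 24 h in 47 genes (23.9%, against 15.2% of all genes scored) and at 2 h in 25 (12.7%, against 26.5%). It was at 8 h in 34 genes (17.3%, against 18.8%), at 12 h in 25 (12.7%, against 7.90%), at 96 h in 25 (12.7%, against 7.30%), at 4 h in 21 (10.7%, against 6.68%), at 48 h in 10 (5.08%, against 5.16%), and at 72 h in 10 (5.08%, against 12.5%). The lowest mean was at 72 h in 41 genes (20.8%, against 13.0%), at 2 h in 38 (19.3%, against 23.6%), at 8 h in 38 (19.3%, against 19.3%), and at 24 h in 12 (6.09%, against 16.4%). It was at 96 h in 20 genes (10.2%, against 7.37%), at 4 h in 18 (9.14%, against 7.72%), at 48 h in 16 (8.12%, against 5.33%), and at 12 h in 14 (7.11%, against 7.34%). Genes lowest at 2 to 8 h and highest at 12 to 96 h numbered 79 (40.1%, against 34.7% of all genes scored), and genes of the reverse order numbered 65 (33.0%, against 36.0%). The highest salt mean was at least 10 times the lowest in 37 genes, and less than 2 times the lowest in 32. Replicate 1 of 72 h, which stood apart, enters the means at 72 h.

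**Figure D4:**
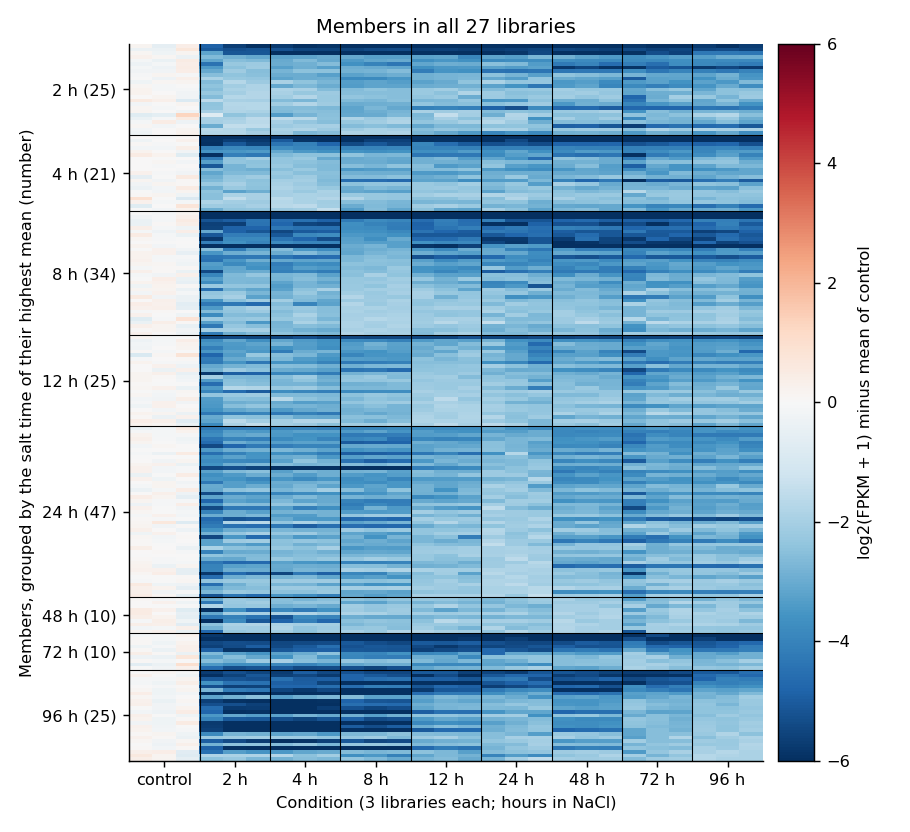
Each row is one of the 197 genes and each column one of the 27 libraries, with the control at the left and the salt time points in order, and the colour gives log2(FPKM + 1) minus the mean of the control libraries, limited at the ends of the colour scale. Rows are grouped by the time of their highest salt mean, 47 of them at 24 h, and the first library of 2 h and the first of 72 h are darker than their neighbours in many rows.

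Some genes of the group lay next to each other. Of the 197 genes, 182 were matched to the reference, which was used for gene order only. There were 7 pairs of directly adjacent members, with 14 genes. Of the scored neighbours of these genes, 7.45% belonged to the group, against 1.56% for the neighbours of all genes scored. With up to 2 genes in between, 19 genes fell in 9 runs of 2 or 3. The 174 scored neighbours outside the group had a median score of -0.27, against -0.56 over all genes scored, and 36.2% of them were above 0, against 28.6%. Adjacent genes may share reads where their models overlap, and their part in these values was not tested.

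A stretch singled out after its values were seen ran from CHLRE_11g467593v5 to CHLRE_11g467601v5 and held 4 of the 12 highest scores within 8 reference genes. These were CHLREDRAFT_193344, CHLREDRAFT_193343, CHLREDRAFT_185219, and CHLREDRAFT_193339. Of the other 4 genes, 2 were not matched to the tables. CHLREDRAFT_193342 had 0.159 to 1.14 FPKM under salt, against 2.44 to 5.54 FPKM in the control, and a score of 1.38, short of the limit. CHLREDRAFT_177412 had 0 to 1.71 FPKM under salt, against 1.39 to 11.0 FPKM in the control, and its 234 counts were below the minimum. The 4 matched genes that flank the stretch, CHLREDRAFT_193345, CHLREDRAFT_151918, CHLREDRAFT_185218, and CHLREDRAFT_193336, had scores of -2.06, -1.34, -0.22, and -2.97. The stretch was drawn from its first to its last member, so that its neighbours are outside the group by construction.

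**Figure D5:**
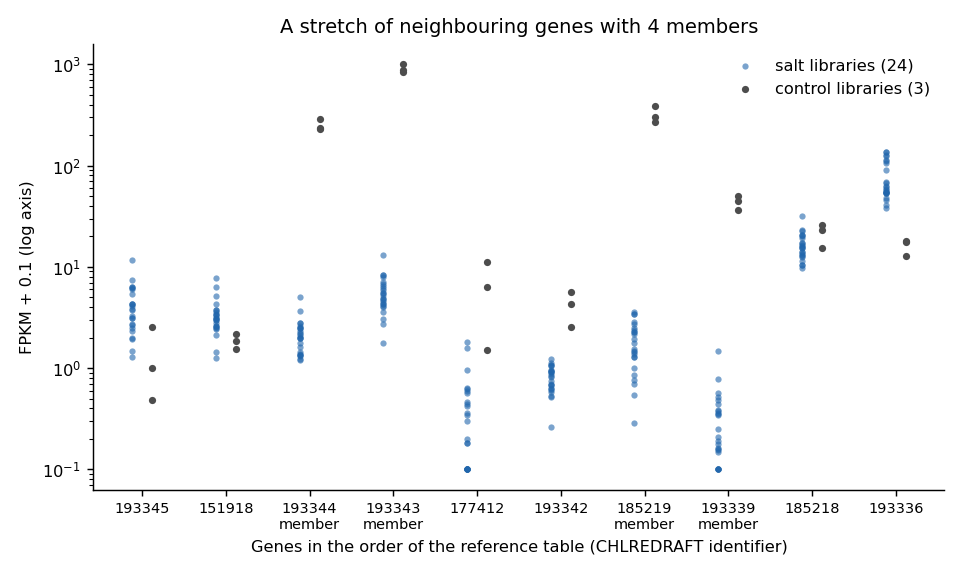
FPKM + 0.1 (vertical, log axis) of 10 neighbouring genes in the order of the reference, with the 24 salt libraries (blue, left) and the 3 control libraries (grey, right) of each gene. In the 4 members every control library lies far above every salt library, in CHLREDRAFT_193342 the gap is small, and in the 4 flanking genes the salt libraries reach or exceed the control.

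Other features of the group were near those of all genes scored. Gene length, as implied by how counts relate to FPKM, had a median of 0.868 of that of all genes scored, with quartiles of 0.548 and 1.42 against 0.636 and 1.5. The spread of the 3 control libraries was 18.1% of the mean in the median gene of the group (SD), against 20% over all genes scored. Of the 113 transcription factor genes that the authors listed as differentially expressed, a list chosen on these same libraries, 81 were scored and none was in the group. The group is only 197 of the 10652 genes scored, so that few members would fall among 81 genes at that share. Of these 81 genes, 19 had a score above 0, where 28.6% of all genes scored did, and the highest was 1.42, at rank 370.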

How the data were processed

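Polyadenylated RNA of 27 samples was sequenced. The authors aligned the reads with HISAT2 2.0.5, assembled further transcripts with StringTie 1.3.3b, and counted reads per gene with featureCounts. The deposited counts were whole numbers without normalization. The deposited FPKM were computed by the authors from counts and gene lengths, and were found to carry median-of-ratios scaling between libraries, differing by up to 52.0% from scaling by total counts. The study names Ensembl Plants as the source of its genome and gene models. The use of strand and the treatment of reads mapping to several genes are not given in the sources used here.

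The members and all lists were chosen with earlier results of these data known. Counts were tested with edgeR 4.0.16 in R 4.3.3 (filterByExpr, TMM, quasi-likelihood fit of all 27 libraries, two-sided, Benjamini-Hochberg adjusted p below 0.05, any fold change), after the fit had been tested on simulated data. The simulation gave all genes the same spread between replicates, changed genes at 8 h only, and held no library that stood apart. It therefore does not show how the fit behaves on data like these. Scores used FPKM with a pseudocount of 1 in Python 3.11.15. A floor of 3 counts per library was used for lower bounds, and 95% Clopper-Pearson intervals cover counting error only. Total counts of 15286332 to 24783139 per library and the spread of 3 replicates limit the precision.

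Genes named are the 12 with the highest score, the 12 with the highest control FPKM, the 3 highest and 3 lowest fold changes among the calls of each comparison of salt time points, and the 3 on each side of the limit. The reference table Chlamydomonas_reinhardtii_v5.5 matched 12541 of the 19267 identifiers and gave locus tags and gene order, without symbols or products, so that lists by symbol or product were not used, except the authors' list of transcription factors by identifier. Coordinates are not printed, since the tables hold none and the reference table is of another source, RefSeq. Alternatives were DESeq2 1.42.0, RLE size factors, other filters, a fit of the 6 libraries at issue, a block for the replicate number, a fold change limit, other pseudocounts and units for the score, and leaving out each library.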

Additional observations from a re-analysis of the deposited data

Results flagged for a closer look

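The levels of some genes at 2 salt time points, each set against the same control, differed by the test of the later time against the earlier one (edgeR, Benjamini-Hochberg adjusted p below 0.05), although both time points were low relative to control. Only the 3 highest and 3 lowest fold changes among the genes called in each comparison are listed, and the numbers called are given above. At 8 h against 2 h, these were CHLREDRAFT_191592 (log2 fold change 5.96), CHLREDRAFT_179244 (2.94), CHLREDRAFT_165065 (2.74), CHLREDRAFT_184071 (-3.33), CHLREDRAFT_143990 (-5.11), and CHLREDRAFT_185533 (-5.17). At 24 h against 8 h, they were CHLREDRAFT_143990 (7.22), CHLREDRAFT_168073 (5.85), CHLREDRAFT_186299 (5.65), CHLREDRAFT_188399 (-2.94), CHLREDRAFT_190800 (-3.22), and CHLREDRAFT_95038 (-4.73). At 96 h against 24 h, they were CHLREDRAFT_193339 (2.93), CHLREDRAFT_113676 (2.73), CHLREDRAFT_181378 (1.84), CHLREDRAFT_184636 (-2.78), CHLREDRAFT_196277 (-3.26), and CHLREDRAFT_191592 (-7.76). The values of CHLREDRAFT_143990 and CHLREDRAFT_193339 rest on a time point with at most 2 counts in 3 libraries. The calls of CHLREDRAFT_188399 and CHLREDRAFT_193339 were lost in some alternatives, as given above.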

How the results depend on the processing

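The counts of calls below are of the 197 genes alone, and the share of all genes called under each alternative is not given here. The counts of calls between salt time points kept within 1.5 times of the values reported in most alternatives, and the exceptions follow. With at least 10 counts in every library, which left 134 of the 197 genes, 28 were called higher at 8 h than at 2 h. With an absolute log2 fold change above 1, 6 were called higher and 29 lower at 96 h than at 24 h. Leaving out replicate 1 of 2 h and replicate 1 of 72 h together, an alternative chosen after seeing the data, gave 22 called higher at 96 h than at 24 h, and the cause was not tested. Leaving out each library in turn gave 37 to 47 higher and 31 to 49 lower at 8 h against 2 h, 56 to 72 and 16 to 26 at 24 h against 8 h, and 6 to 15 and 35 to 49 at 96 h against 24 h, with the 6 obtained without replicate 3 of 96 h. It gave 196 to 197 genes called lower than control at all 8 time points. Of the 200 highest scores, 177 to 200 were shared on leaving out replicates, and 71 with 10 times the count minimum, where only genes that reach it remain. Samples with the same replicate number had deviations correlated at -0.302 to 0.451, with 2 of 9 pairs above 0.1. Samples with different numbers had correlations of -0.497 to 0.541. With 3 replicates per condition, these values cannot tell whether the numbers pair the samples. With the replicate number as a block, 46 were higher and 38 lower at 8 h against 2 h, 65 and 20 at 24 h against 8 h, and 12 and 46 at 96 h against 24 h, and of the named genes CHLREDRAFT_193339 lost its call (edgeR adjusted p = 0.0513). Of 600 fold changes of named genes under alternatives, 579 kept direction and call, 21 kept direction only, and none turned. Of 36 scores, 21 moved by more than the replicate spread, none changing sign. The planned search for motifs was not run, since no promoter sequences were used here. At the depth of these libraries, genes with fewer than 10 counts per salt library, 9 of the 197, show little beyond being low.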

Other observations

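A mirror of the score, the lowest salt level minus the control level, reached the same limit in 100 genes, against 200 genes for the score itself, among the 10652 genes scored. Of the genes chosen on replicates 2 and 3, 1 had a score of -2.24 in replicate 1.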
